A study of Mus musculus with 4 samples.

Results

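The BCL2 family sets whether the mitochondria of a cell release the factors that start apoptosis. Its 10 members described here were the genes of the deposited count table whose symbol was Bcl2, Bcl2l1, Mcl1, Bcl2a1a, Bcl2a1b, Bcl2a1d, Bcl2l11, Bid, Bak1 or Bax, out of 55401 genes in the table. They were selected by symbol, and all 10 passed the filter on low counts that left 14180 genes in the test. Poly(A) RNA was sequenced from splenic B cells of C57BL/6 mice in 4 libraries, 2 labelled Adar1 cKO (with Adar1, now named Adar, the gene of an RNA adenosine deaminase, deleted conditionally in B cells) and 2 from wild-type (WT) mice. The cells of both groups had been purified with anti-CD43 microbeads and cultured for 36 h with anti-CD40 at 1 μg/ml and anti-IgM at 10 μg/ml, which engage the co-stimulatory receptor CD40 and the antigen receptor. Nothing used here gives the Cre driver, the deleted exons or the age of the mice. The labels also do not say whether the libraries came from separate mice or cultures, so the p-values below measure the spread between these libraries, which may be partly technical.

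As background, the family has 3 kinds of protein. Pro-survival members such as BCL-2, BCL-XL, MCL-1 and A1 hold the others in check at the outer mitochondrial membrane. BH3-only members, among them BIM and BID, carry a short BH3 helix that binds the pro-survival proteins or the effectors, and the effectors BAX and BAK form the pores through which cytochrome c leaves. In mouse B cells BIM is a main trigger of the deletion of self-reactive and cytokine-deprived cells, MCL-1 is needed for survival, and A1 and BCL-XL are known to be induced by signals through the antigen receptor and CD40.

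In cKO-labelled libraries 3 of the 10 members were higher than in WT libraries, and the other 7 were not called in either direction. The 3 were Bcl2a1a (3.98-fold), the BIM gene Bcl2l11 (1.31-fold) and Bcl2 (1.23-fold). Over all genes tested, 21.7% were called (12.2% higher and 9.54% lower), and with 10 members nothing particular to the family is read from its share. The libraries of the 2 genotypes did not overlap for 5 members, Bcl2, Bcl2a1a, Bcl2a1b, Bcl2a1d and Bcl2l11, against 57.9% of all genes tested. The median log2 change (cKO-labelled minus WT) was 0.04 over the members and -0.0058 over all genes tested. These calls used edgeR's quasi-likelihood test on counts with Benjamini-Hochberg adjustment over all genes tested, at an adjusted p under 0.05.

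**Figure D1:**
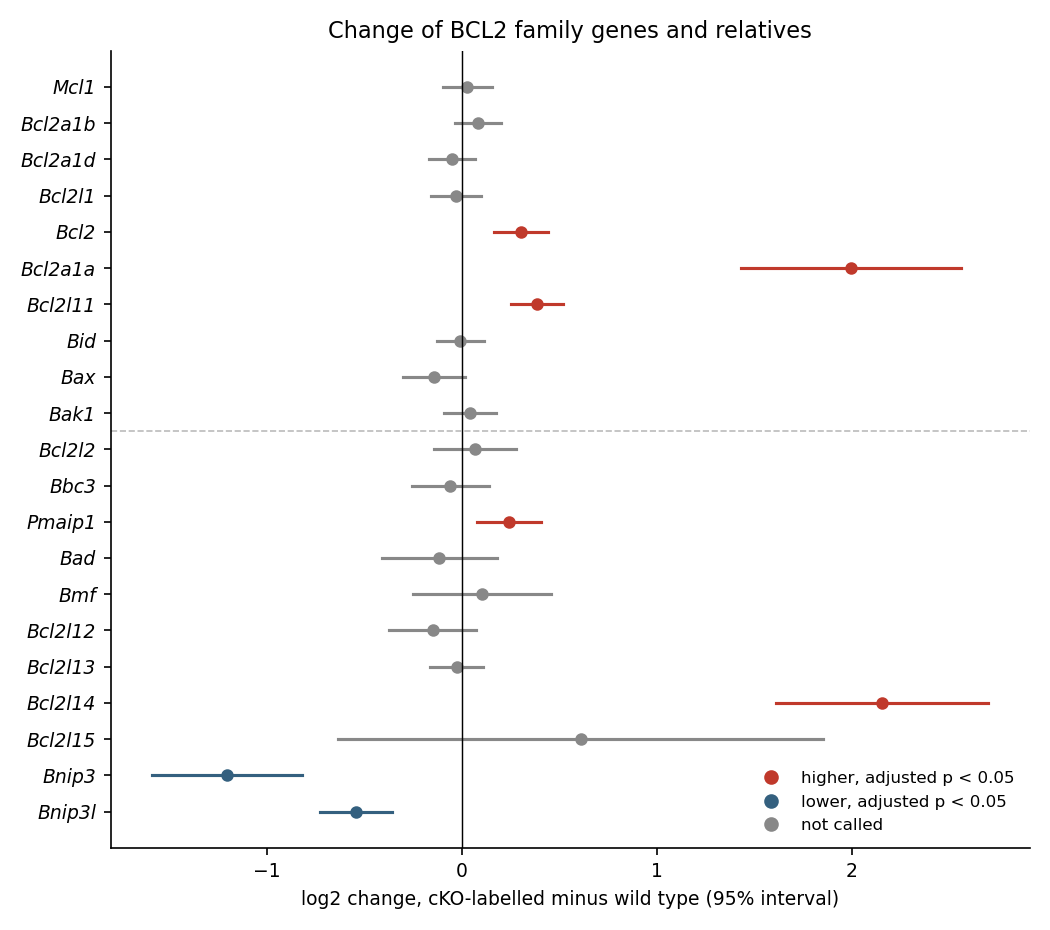
The log2 change of each gene, cKO-labelled minus WT, is drawn on the horizontal axis with its 95% confidence interval, for the 10 members above the dashed line and tested relatives of the family below it (red, called higher, blue, called lower, grey, not called). Among the members Bcl2a1a stands at 1.99, Bcl2l11 (0.39) and Bcl2 (0.30) lie right of 0, and the intervals of the other 7 cross 0.

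The cKO-labelled libraries held 17993261 and 17449871 counts, and the WT libraries 17327480 and 19669651, so 1 count was worth 0.0508 to 0.0577 CPM (counts per library scaled by its size). Adar itself had 218 and 233 CPM in cKO-labelled libraries, against 137 and 150 CPM in WT libraries, a rise of 0.65 ± 0.063 (log2, SE, n = 2 each, adjusted p = 3.39e-08) that a gene-level count cannot relate to the deleted exons. Of 7 B-cell markers tested, 1 was higher and 5 were lower, against 12.2% and 9.54% of all genes tested. Their summed levels were 3601 and 3708 CPM in cKO-labelled libraries and 4656 and 4620 CPM in WT libraries. Of 7 dendritic-cell markers, 4 were tested and 3 were higher (Flt3, Zbtb46 and Itgax), with sums of 107.9 and 113 CPM in cKO-labelled libraries and 58.4 and 57.1 CPM in WT libraries. Cd209a of that list had no count in any library. Of 5 plasma-cell markers tested 3 were higher (Jchain by 1.70, Prdm1 by 1.10 and Xbp1 by 0.20, log2). Irf4 (0.04) and Sdc1 (-0.53) were not called. The 5 markers summed to 699 and 718 CPM in cKO-labelled libraries against 609 and 620.2 CPM in WT libraries. Most of this sum was Irf4, with 457 and 467 CPM in cKO-labelled libraries against 438 and 461 CPM in WT libraries. T-cell markers summed to at most 3.73 CPM in cKO-labelled libraries and 3.48 CPM in WT libraries. Erythroid markers (2 of 3 tested higher) and neutrophil markers (1 of 2 tested higher, Ly6g without a count) summed to at most 3.78 and 3.21 CPM in cKO-labelled libraries and at most 1.27 and 1.16 CPM in WT libraries. All 8 interferon-response genes were higher, with sums of 693 and 667 CPM in cKO-labelled libraries and 103 and 97.1 CPM in WT libraries. The part of these differences in the results on the family was not tested, and in bulk RNA fewer cells of a type and less RNA per cell cannot be told apart.

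Bcl2a1a, Bcl2a1b and Bcl2a1d are near-identical copies of the A1 gene on mouse chromosome 9. The counts assigned to the copies behaved unequally, so their sequences are shown first. The coding sequences of Bcl2a1a, Bcl2a1b and Bcl2a1d in GENCODE M21 were 516 bases each without the stop codon and differed at 12 positions. Bcl2a1a differed from Bcl2a1b at 11 positions (97.9% identity) and from Bcl2a1d at 7 (98.6%), and Bcl2a1b differed from Bcl2a1d at 6 (98.8%). At 6 positions Bcl2a1a alone differed. With the base of Bcl2a1b and Bcl2a1d written first and positions counted from 1 at the coding start, these were A11C, C12T, T16C, T22C, G337T and G407A. The first 240 coding bases hold 7 of the 12 positions, in capitals below, and 4 of the 6 at which Bcl2a1a stands alone. On GRCm38 they lie at chr9:88957051-88957290 (plus strand) for Bcl2a1a, chr9:89199360-89199599 (plus strand) for Bcl2a1b and chr9:88731480-88731719 (minus strand) for Bcl2a1d, and each is printed 5′ to 3′ along its gene.
Bcl2a1a: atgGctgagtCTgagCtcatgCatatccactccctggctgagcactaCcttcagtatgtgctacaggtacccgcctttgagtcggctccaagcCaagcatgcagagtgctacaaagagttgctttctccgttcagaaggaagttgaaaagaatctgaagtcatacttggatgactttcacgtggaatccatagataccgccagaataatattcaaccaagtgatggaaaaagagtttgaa
Bcl2a1b: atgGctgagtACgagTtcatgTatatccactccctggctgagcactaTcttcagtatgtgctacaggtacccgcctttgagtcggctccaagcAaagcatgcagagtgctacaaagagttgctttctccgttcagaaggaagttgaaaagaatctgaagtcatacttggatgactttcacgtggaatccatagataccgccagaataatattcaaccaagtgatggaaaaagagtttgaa
Bcl2a1d: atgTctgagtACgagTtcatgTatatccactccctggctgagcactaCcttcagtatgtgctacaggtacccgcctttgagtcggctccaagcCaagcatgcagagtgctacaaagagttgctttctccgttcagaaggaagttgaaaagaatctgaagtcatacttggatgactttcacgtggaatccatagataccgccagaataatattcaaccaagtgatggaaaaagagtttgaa

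The promoters of the copies were also nearly the same. Windows from 250 bases before to 50 bases after each start (RefSeq, GRCm38.p6) were aligned, and the stretch that all 3 windows share is printed. The copy whose assigned counts rose has almost the same start region as the copies that were not called. In capitals are 4 substituted columns and a run of 6 bases present in Bcl2a1a and Bcl2a1b and missing in Bcl2a1d. The stretches are chr9:88956714-88956969 (plus strand) for Bcl2a1a, chr9:89199023-89199278 (plus strand) for Bcl2a1b and chr9:88731801-88732050 (minus strand) for Bcl2a1d. Bcl2a1a and Bcl2a1b shared 99.2% of 256 aligned bases in their windows, Bcl2a1a and Bcl2a1d 98.0% of 294, and Bcl2a1b and Bcl2a1d 98.8% of 250.
Bcl2a1a promoter: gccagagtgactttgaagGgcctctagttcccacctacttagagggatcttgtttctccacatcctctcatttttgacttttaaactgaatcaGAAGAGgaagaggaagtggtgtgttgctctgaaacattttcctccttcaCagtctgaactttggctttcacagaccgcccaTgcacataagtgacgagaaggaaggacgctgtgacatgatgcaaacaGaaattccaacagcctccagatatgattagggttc
Bcl2a1b promoter: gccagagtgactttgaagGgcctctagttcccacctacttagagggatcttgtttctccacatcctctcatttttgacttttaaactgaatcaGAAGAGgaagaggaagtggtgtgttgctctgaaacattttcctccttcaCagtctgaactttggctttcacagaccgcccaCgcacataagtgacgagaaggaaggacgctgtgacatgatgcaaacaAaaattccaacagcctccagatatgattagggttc
Bcl2a1d promoter: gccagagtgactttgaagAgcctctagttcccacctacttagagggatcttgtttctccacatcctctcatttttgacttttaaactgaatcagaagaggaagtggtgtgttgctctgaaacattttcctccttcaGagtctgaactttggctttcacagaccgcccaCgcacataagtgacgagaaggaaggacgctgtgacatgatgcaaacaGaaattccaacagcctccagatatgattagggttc

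Promoters of all 10 members were found in that table, in 13 windows, and were searched on both strands for 3 motifs, taken as consensus patterns. The NF-kB consensus occurred in 2 windows, that of Mcl1 and 1 of the 3 of Bcl2l1, and in 1.63% of 32851 promoter windows of the table. The interferon-stimulated response element (ISRE), held by 3.44% of all windows, and the STAT motif TTCNNNGAA, held by 8.30%, had no match in the member windows. These are matches of letters in a short window and say nothing of whether a factor binds there or elsewhere.

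Bcl2a1a (ENSMUSG00000102037, chromosome 9, 88956900 to 88962419, plus strand) was the member with the largest change. It had 118 and 123 counts in cKO-labelled libraries, against 25 and 38 counts in WT libraries, which is 6.55 and 7.05 CPM in cKO-labelled and 1.45 and 1.93 CPM in WT libraries. Both cKO-labelled libraries were above both WT libraries, with a log2 change of 1.99 ± 0.27 (SE, n = 2 each, adjusted p = 6.51e-06). The mean was 6.80 ± 0.351 CPM in cKO-labelled and 1.69 ± 0.341 CPM in WT libraries (SD, n = 2 each). Even so, Bcl2a1a made up 1.05% and 1.13% of all counts on the A1 copies in cKO-labelled libraries (exact Clopper-Pearson 95% intervals 0.868 to 1.25% and 0.941 to 1.35%), against 0.240% and 0.312% in WT libraries (0.155 to 0.354% and 0.221 to 0.429%).

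The other A1 copies carried nearly all of the A1 reads. Bcl2a1b (ENSMUSG00000089929, chromosome 9, 89199209 to 89207827, plus strand) had 309.5 and 315 CPM in cKO-labelled libraries, against 294 and 294 CPM in WT libraries. Its libraries did not overlap, but the log2 change of 0.08 ± 0.057 (SE, n = 2 each, adjusted p = 0.329) was not called. Bcl2a1d (ENSMUSG00000099974, chromosome 9, 88723285 to 88731914, minus strand) had 309 and 302 CPM in cKO-labelled libraries, against 309.6 and 322 CPM in WT libraries. Its difference ran the other way, at -0.05 ± 0.057 (log2, SE, n = 2 each, adjusted p = 0.625), and was not called either. A gene model on the opposite strand of Bcl2a1d, Gm10634, had 9 to 22 counts per library. The count of Bcl2a1b was 1.00 and 1.04 times that of Bcl2a1d in cKO-labelled libraries and 0.951 and 0.912 times in WT libraries. Bcl2a1c, a further copy, had no count in any library, which allows up to 0.153 to 0.173 CPM (3 counts).

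Summed as 1 feature, the A1 copies had 625 and 623 CPM in cKO-labelled libraries, against 605 and 618 CPM in WT libraries. The sum was 624 ± 1.29 CPM in cKO-labelled and 612 ± 9.13 CPM in WT libraries (SD, n = 2 each), a log2 change of 0.03 ± 0.055 (SE, 95% interval -0.08 to 0.14, edgeR adjusted p = 0.785). Neither the handling of reads that match several copies nor the read length is given in the sources used here. Of all 100-base windows of the longest transcript, 56.5% of those of Bcl2a1a, 43.2% of those of Bcl2a1b and 45.3% of those of Bcl2a1d occurred in no other gene. For 150-base windows the shares were 71.8%, 58.1% and 69.7%. At both lengths many windows were shared, so the split between copies is uncertain. Gm29094, a gene model on the same strand that overlaps Bcl2a1b, shares windows with all 3 and had 38 to 48 counts per library. The count of Bcl2a1a was 2.12% and 2.24% of that of Bcl2a1b in cKO-labelled libraries and 0.493% and 0.657% in WT libraries. Whether reads of other copies were counted on Bcl2a1a was not tested.

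**Figure D2:**
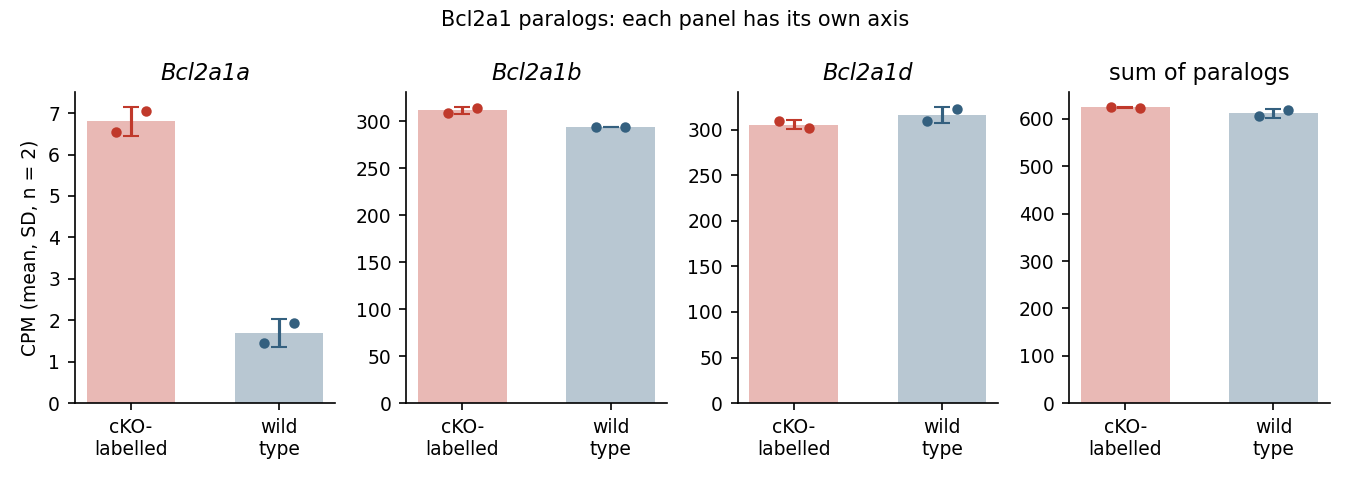
Each panel shows CPM on its own axis from 0 for an A1 copy or the sum of the copies, with bars for the mean, error bars for the SD (n = 2) and points for libraries, cKO-labelled left of WT. Bcl2a1a averages 6.80 CPM in cKO-labelled and 1.69 CPM in WT libraries, while Bcl2a1b and Bcl2a1d lie between 294 and 322 CPM in all 4 libraries.

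Bcl2 (ENSMUSG00000057329, chromosome 1, 106538178 to 106714274, minus strand) encodes the founding pro-survival protein. It had 76.5 and 74.7 CPM in cKO-labelled libraries, against 62.7 and 59.8 CPM in WT libraries. The groups did not overlap, and Bcl2 rose by 0.30 ± 0.067 (log2, SE, n = 2 each, adjusted p = 0.00168). An overlapping model on the opposite strand, D630008O14Rik, had at most 9 counts per library. The call held when any single library was left out, with adjusted p-values up to 0.0363.

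Mcl1 (ENSMUSG00000038612, chromosome 3, 95658788 to 95663176, plus strand), which encodes a short-lived pro-survival protein, had 609.5 and 546 CPM in cKO-labelled libraries, against 555 and 577 CPM in WT libraries. The WT values lay between the cKO-labelled ones, and the log2 change was 0.03 ± 0.061 (SE, 95% interval -0.10 to 0.15, edgeR adjusted p = 0.805). Bcl2l1 (ENSMUSG00000007659, chromosome 2, 152780668 to 152831728, minus strand), the gene of BCL-XL, had 214.5 and 214.4 CPM in cKO-labelled libraries, against 206 and 231 CPM in WT libraries. Here the cKO-labelled values lay between the WT ones, and the log2 change was -0.03 ± 0.062 (SE, 95% interval -0.16 to 0.10, edgeR adjusted p = 0.816). For both genes the intervals do not reach the change of Bcl2a1a or the point estimate for Bcl2. Gene-level counts do not separate splice forms such as the long and short forms of BCL-X.

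Levels between genes can be compared only per length, for which the deposited FPKM (counts per kilobase of exon, scaled to the library total) were used. In cKO-labelled libraries Bcl2a1b averaged 382 FPKM and Bcl2a1d 354 FPKM, against 359 and 365 FPKM in WT libraries. Bcl2a1b was above Bcl2a1d in both cKO-labelled libraries, while in WT libraries, at 358 and 359.9 FPKM for Bcl2a1b and 357 and 373 FPKM for Bcl2a1d, the 2 copies overlapped. Mcl1 followed with 169 ± 13.3 FPKM in cKO-labelled and 165 ± 5.32 FPKM in WT libraries (SD, n = 2 each). Next came Bax with 70.4 ± 11.0 FPKM in cKO-labelled and 77.3 ± 0.354 FPKM in WT libraries, and Bid with 53.3 ± 2.35 FPKM in cKO-labelled and 53.3 ± 0.566 FPKM in WT libraries. Bid and Bcl2l1 were neighbours, Bcl2l1 having 46.8 ± 0.0566 FPKM in cKO-labelled and 47.5 ± 3.96 FPKM in WT libraries, and every library had more Bid than Bcl2l1. Bak1 had 34.0 and 32.3 FPKM in cKO-labelled libraries, against 31.3 and 32.7 FPKM in WT libraries. Bcl2l11 had 14.8 ± 1.07 FPKM in cKO-labelled and 11.3 ± 0.205 FPKM in WT libraries (SD, n = 2 each). At the low end, Bcl2 had 8.36 and 8.15 FPKM and Bcl2a1a 8.01 and 8.61 FPKM in cKO-labelled libraries, so the 2 genes overlapped there. In WT libraries Bcl2 had 6.81 and 6.53 FPKM and Bcl2a1a 1.76 and 2.36 FPKM, so Bcl2a1a was the lowest member.

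**Figure D3:**
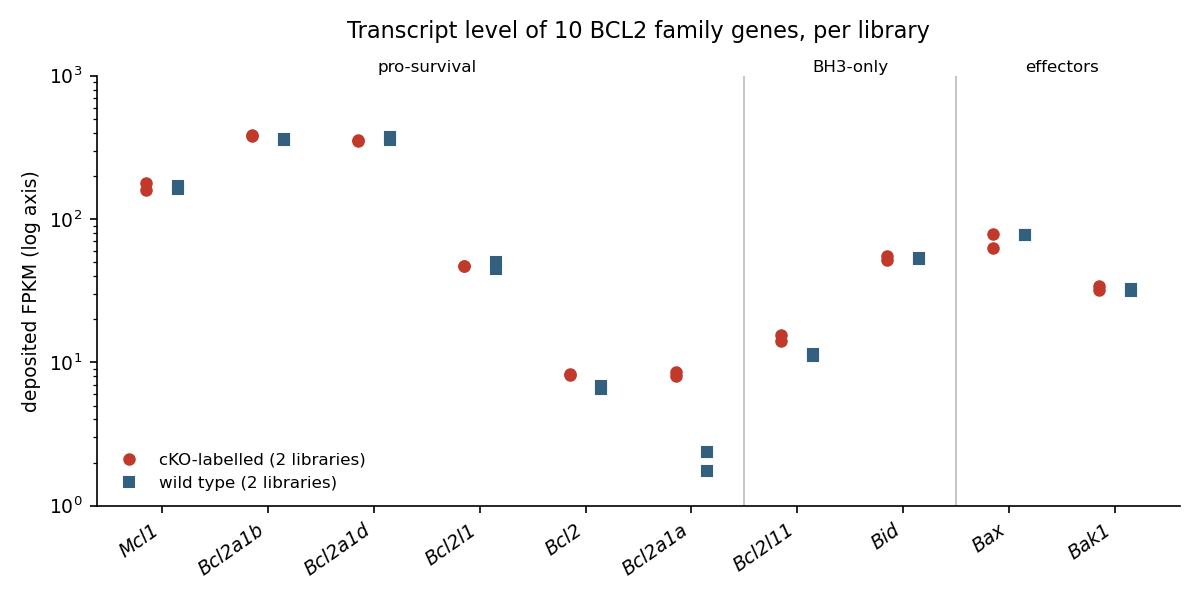
The deposited FPKM of the 10 members is plotted by library on a log axis, with cKO-labelled libraries left of WT libraries for each gene. Bcl2a1b and Bcl2a1d are the highest in all libraries, and Bcl2a1a averages 8.31 FPKM in cKO-labelled and 2.06 FPKM in WT libraries.

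As shares of the summed FPKM of the 6 pro-survival members, Bcl2a1b and Bcl2a1d together made up most of the pool in every library. Bcl2a1b held 38.7% and 40.2% in cKO-labelled libraries, against 38.6% and 37.4% in WT libraries, and Bcl2a1d held 36.6% and 36.5% in cKO-labelled libraries, against 38.4% and 38.8% in WT libraries. Mcl1 held 18.2% and 16.7% in cKO-labelled libraries, against 17.4% and 17.6% in WT libraries. Bcl2l1 held 4.78% and 4.88% in cKO-labelled libraries, against 4.81% and 5.24% in WT libraries. Both genes that rose were small parts of this pool. Bcl2 held 0.854% and 0.851% in cKO-labelled libraries, against 0.732% and 0.679% in WT libraries. Bcl2a1a held 0.818% and 0.899% in cKO-labelled libraries, against 0.189% and 0.245% in WT libraries. An exact two-sided permutation test of 2 against 2 libraries cannot go below p = 0.333, the value reached by Bcl2, Bcl2a1a, Bcl2a1b and Bcl2a1d, so none of these shares can pass a threshold of 0.05. The whole pool summed to 979 and 958 FPKM in cKO-labelled libraries, against 929.8 and 961 FPKM in WT libraries, which overlap.

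**Figure D4:**
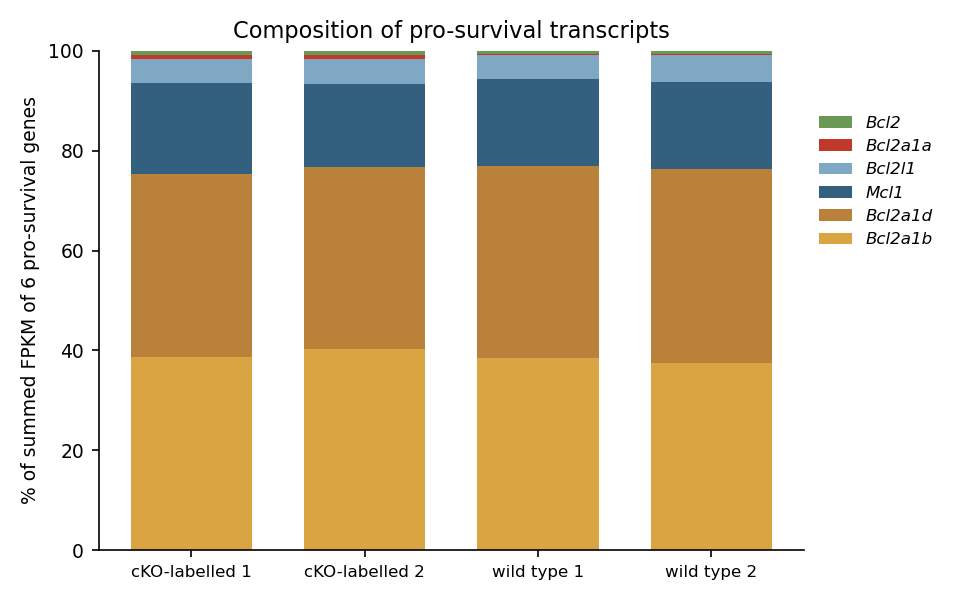
The share of each pro-survival member in the summed FPKM of the 6 pro-survival members is drawn per library, with cKO-labelled libraries left of WT libraries. Bcl2a1b, Bcl2a1d and Mcl1 fill most of each bar, with Mcl1 between 16.7% and 18.2%.

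Among the BH3-only members, the BIM gene was higher in cKO-labelled libraries and the BID gene was not called. Bcl2l11 (ENSMUSG00000027381, chromosome 2, 128126038 to 128162547, plus strand), the gene of BIM, had 113 and 125 CPM in cKO-labelled libraries, against 89.8 and 91.7 CPM in WT libraries. Its libraries did not overlap, and it rose by 0.39 ± 0.065 (log2, SE, n = 2 each, adjusted p = 8.74e-05). Bid (ENSMUSG00000004446, chromosome 6, 120891930 to 120916853, minus strand), whose protein is cut by caspase-8 and so links death receptors to mitochondria, had 183 and 195 CPM in cKO-labelled libraries, against 189 and 191 CPM in WT libraries. Its groups overlapped, at -0.01 ± 0.059 (log2, SE, 95% interval -0.13 to 0.12, edgeR adjusted p = 0.963). Bid overlaps Bcl2l13 by 913 bases on the opposite strand, and 77.1% of its 100-base windows occurred in no other gene. The library kit does not mark strand, so reads in that overlap cannot be told apart.

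Since BIM acts by binding the pro-survival proteins, its level was also set beside theirs. Bcl2l11 FPKM was 1.43% and 1.62% of the pro-survival pool in cKO-labelled libraries, against 1.20% and 1.19% in WT libraries. Relative to Mcl1 it was 7.87% and 9.74% in cKO-labelled libraries, against 6.90% and 6.76% in WT libraries. Both ratios were higher in both cKO-labelled libraries, with the smallest exact permutation p of 0.333. Relative to Bcl2, which also rose, the FPKM ratio of Bcl2l11 was 1.68 and 1.91 in cKO-labelled libraries, against 1.63 and 1.75 in WT libraries. Those ranges overlapped, with an exact permutation p of 0.667. These are ratios of RNA, and protein was not measured.

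The effectors were not called different. Bak1 (ENSMUSG00000057789, chromosome 17, 27019810 to 27029009, minus strand) had 81.7 and 77.6 CPM in cKO-labelled libraries, against 75.8 and 78.7 CPM in WT libraries, a log2 change of 0.04 ± 0.065 (SE, 95% interval -0.09 to 0.18, edgeR adjusted p = 0.713). Ggnbp1 overlaps it on the opposite strand and had 21 to 47 counts per library, against 1306 to 1548 for Bak1. Bax (ENSMUSG00000003873, chromosome 7, 45461697 to 45466898, minus strand), a known p53 target, had 98.7 and 123 CPM in cKO-labelled libraries, against 122 and 122 CPM in WT libraries. Library 1 of the cKO-labelled group was low and library 2 lay beside the WT libraries, and the log2 change of -0.14 ± 0.076 (SE, n = 2 each, adjusted p = 0.215) was not called. That library decided the value of Bax, which was 0.01 (adjusted p = 0.955) without it and -0.31 (adjusted p = 0.00176, called lower) without cKO-labelled library 2. Over all alternatives the adjusted p of Bax lay between 0.00176 and 0.955, and the change was 0.02 once a trend with GC content was removed. The FPKM ratio of Bax to Bak1 was 1.84 and 2.42 in cKO-labelled libraries, against 2.46 and 2.37 in WT libraries, which overlap.

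Relatives outside the 10 members were covered by lists of other pro-survival, BH3-only, effector and related mitochondrial genes. Of 3 other pro-survival genes, Bcl2l2 (BCL-W) was tested and not called, with 26.6 and 26.1 CPM in cKO-labelled libraries against 24.9 and 25.3 CPM in WT libraries. Bcl2l10 and Bcl2a1c had no count in any library. The effector relative Bok had 2 and 0 counts in cKO-labelled libraries, against 2 and 1 counts in WT libraries, too few to test. Of 6 other BH3-only genes, 4 were tested and, against 21.7% of all genes tested, 1 was called. That was Pmaip1, the gene of NOXA, which binds MCL-1, with 48.0 and 47.7 CPM in cKO-labelled libraries, against 39.5 and 41.3 CPM in WT libraries. Pmaip1 rose by 0.24 ± 0.079 (log2, SE, n = 2 each, adjusted p = 0.0304), but the call was lost with the DESeq2 test, with the GC trend removed and without any single library, with adjusted p-values over all alternatives between 0.0170 and 0.206. Not called were Bbc3 (PUMA) at -0.06 ± 0.096, Bad at -0.11 ± 0.14 and Bmf at 0.11 ± 0.17 (log2, SE). Bik had 8 and 0 counts in cKO-labelled and 3 and 11 counts in WT libraries, and Hrk had 2 and 0 counts in cKO-labelled and 4 and 0 counts in WT libraries.

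Of 6 related mitochondrial genes tested, 1 was higher and 2 were lower, against 12.2% and 9.54% of all genes tested. Another 3 were not called, and the median log2 change of the 6 was -0.09 against -0.0058 over all genes. Bcl2l14, which encodes BCL-G, a BCL2-like protein, had 128 and 171 counts in cKO-labelled libraries, against 29 and 41 counts in WT libraries, and rose by 2.15 ± 0.26 (log2, SE, n = 2 each, adjusted p = 1.22e-06). Like Bcl2a1a it was a low gene, at 8.45 ± 1.903 CPM in cKO-labelled and 1.88 ± 0.284 CPM in WT libraries (SD, n = 2 each). Bnip3 and Bnip3l, whose products mark mitochondria for autophagy and which are known hypoxia-response genes, moved the other way. Bnip3 had 11.3 and 6.07 CPM in cKO-labelled libraries, against 19.7 and 20.5 CPM in WT libraries, and fell by 1.20 ± 0.18 on the log2 scale (SE, n = 2 each, adjusted p = 3.05e-05). Bnip3l had 63.9 and 48.2 CPM in cKO-labelled libraries, against 81.0 and 82.3 CPM in WT libraries, and fell by 0.54 ± 0.089 on the log2 scale (SE, n = 2 each, adjusted p = 6.92e-05). In both genes cKO-labelled library 2 was the lower of its group. Without it the log2 changes were -0.83 for Bnip3 and -0.35 for Bnip3l, and without cKO-labelled library 1 they were -1.73 and -0.76, all of them called. The 3 not called were Bcl2l12 at -0.15 ± 0.11, Bcl2l13 at -0.02 ± 0.065 and Bcl2l15 at 0.61 ± 0.60 (log2, SE), of which Bcl2l12 overlaps Irf3 on the opposite strand and Bcl2l15 had at most 13 counts.

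Steps around the family were described by further lists. Of 5 genes of the mitochondrial pore and dynamics, 1 was lower, against 9.54% of all genes tested, and 4 were not called. The median log2 change was 0.01. The lower gene was Vdac3, an outer-membrane channel, with 81.7 and 74.7 CPM in cKO-labelled libraries, against 101 and 98.4 CPM in WT libraries, a log2 change of -0.35 ± 0.065 (SE, n = 2 each, adjusted p = 0.000300). Of 10 genes of the apoptosome and execution, 3 were higher, against 12.2% of all genes tested, and 7 were not called. Their median was 0.0044, next to the -0.0058 of all genes. Apaf1, the scaffold of the apoptosome, had 65.3 and 60.8 CPM in cKO-labelled libraries, against 50.7 and 52.1 CPM in WT libraries, and rose by 0.29 ± 0.072 (log2, SE, n = 2 each, adjusted p = 0.00425). Htra2, a mitochondrial protease, rose by 0.26 ± 0.065 (adjusted p = 0.00574), a call lost without WT library 2 (adjusted p = 0.107) and without cKO-labelled library 1 (0.0643), with a range of 0.00014 to 0.107 over the alternatives and a change of 0.39 with the GC trend removed.

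Of 6 inhibitors of apoptosis 5 were higher, with a median log2 change of 0.30, against 12.2% of all genes tested higher and a median of -0.0058 over all genes. Birc3, the NF-kB target that encodes cIAP2, was not called at -0.06 ± 0.058 (log2, SE). Naip2, which is also a sensor of the NAIP inflammasome, had 27.0 and 26.0 CPM in cKO-labelled libraries, against 11.1 and 9.31 CPM in WT libraries, and rose by 1.38 ± 0.13 (log2, SE, n = 2 each, adjusted p = 1.90e-08). Its relative Naip5 rose by 0.88 ± 0.13, Birc5 (survivin, known for its part in mitosis) by 0.32 ± 0.065 and Birc2 (cIAP1) by 0.29 ± 0.065. Birc2 was no longer called without cKO-labelled library 1 (log2 change 0.19, adjusted p = 0.0571, range over the alternatives 5.59e-05 to 0.0571). Naip2 and Naip5 belong to a family of similar copies, so their separate counts are uncertain.

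Of 7 genes of the death receptor arm that leads to BID, 4 were higher and 3 were not called, with a median log2 change of 0.39, against the same 12.2% and -0.0058 over all genes. Fas, the death receptor, had 72.5 and 71.1 CPM in cKO-labelled libraries, against 42.7 and 39.7 CPM in WT libraries, and rose by 0.80 ± 0.073 (log2, SE, n = 2 each, adjusted p = 1.19e-08). Casp8, whose product cuts BID, rose by 0.31 ± 0.062, and Cflar, which encodes its inhibitor FLIP, rose by 0.39 ± 0.059 (log2, SE). Gzmb, a protease of killer cells, had 18 and 23 counts in cKO-labelled libraries, against 2 and 4 counts in WT libraries. It rose by 2.78 ± 0.68 (log2, SE, adjusted p = 0.00397), but was not called without WT library 1 (adjusted p = 0.0722) or without cKO-labelled library 2 (0.0727), in a range of 0.00107 to 0.0727 over the alternatives. Of 4 NK-cell markers 1 was tested and not called, and the list summed to 1.61 and 1.55 CPM in cKO-labelled libraries, against 0.522 and 0.356 CPM in WT libraries. The part of such cells in the Gzmb result was not tested.

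**Figure D5:**
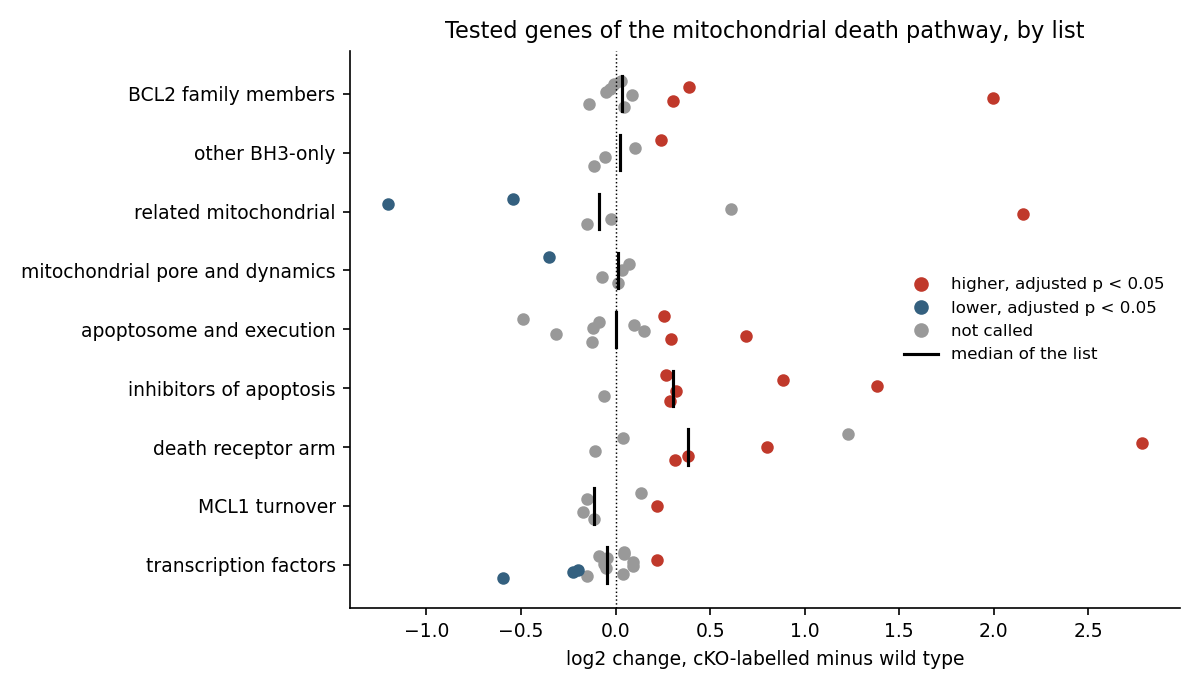
Each point is a tested gene of the lists around the family, with its log2 change, cKO-labelled minus WT, on the horizontal axis, coloured where called at an adjusted p under 0.05 (red higher, blue lower), and black bars mark the list medians. Inhibitors of apoptosis and the death receptor arm lie mostly right of 0, with medians of 0.30 and 0.39.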

How the data were processed

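RNA was measured by poly(A) RNA sequencing (RNeasy and NEBNext Ultra RNA kits, per the labels' protocols). The authors deposited whole-number read counts per gene and FPKM for 4 libraries. Per the submitters' processing notes, HISAT2 2.0.1, HTSeq 0.6.1, cutadapt 1.9.1 and bcl2fastq 2.17.1.14 were used with GRCm38. No source used here gives their settings, the annotation or how strand was counted. FPKM recomputed from the counts, the exonic length and the library total lay within 0.005 of the deposited FPKM values.

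The counts of all 4 libraries were fitted in edgeR 4.0.16 (R 4.3.3) after TMM scaling and filterByExpr, which asked for a count of 10 and a total of 15 and left 14180 genes. The genotypes were compared by edgeR's quasi-likelihood test, and a gene was called at an adjusted p (Benjamini-Hochberg) below 0.05. The members and lists were chosen with earlier results of these data known. Named genes are all 10 members, relatives of the family, and of each further list at most the 4 called genes with the smallest adjusted p. Each library was kept as a replicate. Libraries of a genotype differed beyond sampling noise, with a chi-square per gene of 4.37 in cKO-labelled and 8.49 in WT libraries. That excess may be technical, so it cannot show whether the libraries came from separate mice or cultures. Alternatives were DESeq2 1.42.0 (its test and its size factors), limma-voom (limma 3.58.1), no count filter, a GC trend removed, a replicate block, ribosomal RNA genes left out, and each library left out in turn. Coding sequences came from GENCODE M21 and promoters from RefSeq (GRCm38.p6), and the copies were aligned with mafft 7.526. Intervals and limits of 3 counts cover counting error only, since PCR reads are not independent molecules. Some genes of the lists are not reported here by name.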

Additional observations from a re-analysis of the deposited data

How the results depend on the processing

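Bcl2, Bcl2a1a and Bcl2l11 were called in all 12 alternatives, with log2 changes (cKO-labelled minus WT) of 0.26 to 0.33, 1.80 to 2.22 and 0.31 to 0.46. In 1 alternative, without cKO-labelled library 2, Bax was called too. Over all genes 3080 were called, against 2030 with the DESeq2 test (1235 higher and 795 lower) and 2277 to 2713 without a single library. The replicate block gave 3498 calls. Same-numbered libraries did not deviate together (r = -0.03 across genes), but with 2 libraries per genotype this cannot show whether the numbers mark pairs.

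Signs changed mostly for values near 0. With the GC trend removed, the log2 change was 0.0524 for Bcl2l1, 0.0130 for Bid, 0.0229 for Bax, 0.12 for Bbc3 and -0.0385 for the summed A1 copies, and with the GC trend removed and a replicate block it was 0.0551, 0.0127, 0.0186, 0.12 and -0.0385 for the same features. Without a single library, log2 changes ran from -0.0546 to 0.11 for Mcl1, -0.11 to 0.0497 for Bcl2l1, -0.0523 to 0.0372 for Bid, -0.31 to 0.00982 for Bax, -0.15 to 0.0313 for Bbc3, -0.28 to 0.0695 for Bad, -0.0848 to 0.28 for Bmf and -0.0783 to 0.0198 for Bcl2l13. The difference in share of the pro-survival pool ran from -0.794 to 0.767 percentage points for Mcl1 and from -0.405 to 0.0194 for Bcl2l1 without a single library. For Mcl1 it was 0.0986 points in a pool without the A1 copies, against -0.0136 with them. The cause of these changes was not tested. Depth limits low genes: Bcl2a1a rests on 25 to 123 counts per library, and Bok, Bik and Hrk on at most 11.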

Other observations

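Genes that act on the stability of the MCL-1 protein and transcription factors known to act on the family were measured as further lists. Against 21.7% of all genes tested, 1 of 5 MCL-1 turnover genes was called, with a list median log2 change (cKO-labelled minus WT) of -0.12. That was Fbxw7, a ubiquitin ligase subunit, with 48.5 and 50.8 CPM in cKO-labelled libraries, against 41.5 and 43.8 CPM in WT libraries (log2 change 0.22 ± 0.078, SE, edgeR adjusted p = 0.0496). Its call was lost with the DESeq2 test, limma-voom, no count filter, the GC trend removed and without any single library, with adjusted p-values between 0.0306 and 0.295 over the alternatives. Huwe1, the ubiquitin ligase also known as MULE, had 575 and 635 CPM in cKO-labelled libraries, against 639 and 706 CPM in WT libraries, and was not called (edgeR adjusted p = 0.0877). It is named for its role, after its values were seen.

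Of 14 transcription factors, 1 was higher and 3 were lower, against 12.2% and 9.54% of all genes tested. The other 10 were not called, and the median log2 change of the 14 was -0.05. Bcl6, a transcriptional repressor expressed in germinal-centre B cells, had 9.55 and 10.54 CPM in cKO-labelled libraries, against 14.7 and 15.6 CPM in WT libraries. It fell by 0.59 ± 0.15 on the log2 scale (SE, edgeR adjusted p = 0.00457). Myc, known to drive growth and to sensitise cells to death, had 259 and 245 CPM in cKO-labelled libraries, against 297 and 282 CPM in WT libraries, a log2 change of -0.20 ± 0.059 (SE, edgeR adjusted p = 0.0163). Myc was not called with the GC trend removed (adjusted p = 0.0652), without WT library 1 (0.128) or without cKO-labelled library 2 (0.141), in an edgeR range of 0.00543 to 0.141 over the alternatives. Relb, an NF-kB subunit, changed by 0.22 ± 0.068 and Foxo3, an activator of the BIM gene, by -0.23 ± 0.078 (log2, SE, edgeR adjusted p = 0.0212 and 0.0396). Relb was not called with the DESeq2 test, without WT library 2 (log2 change 0.15) or without cKO-labelled library 2 (log2 change 0.13). Foxo3 was not called with the DESeq2 test, with the GC trend removed, without WT library 2 or without cKO-labelled library 1. Its log2 change was -0.19 without WT library 2, -0.11 without cKO-labelled library 1 and -0.35 without cKO-labelled library 2. Rel, the NF-kB subunit known to induce A1 and BCL-XL, had 523 and 548 CPM in cKO-labelled libraries, against 529.7 and 586 CPM in WT libraries, and Trp53 had 168 and 169 CPM in cKO-labelled libraries, against 169.8 and 158 CPM in WT libraries. Neither was called, and both are named for their roles after their values were seen.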
